A study of Mus musculus with 6 samples.

Results

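The name intronic circular RNA (ciRNA) stands for a circle of intron sequence, and 932 of the 10023 circRNA entries measured in these aortas carried it. They were taken from the deposited circRNA table as every entry that its circle type column marks as ciRNA, and they came from 777 host genes. The annotation went against the name for some of them, since 91 of the 128 entries listed by coordinates and 60 of the other 804 held at least 1 whole exon. The other entries were 8992 exonic circRNAs, made of exons whose downstream end is joined back to an upstream exon, and 99 intergenic ones. The samples were aortas of male ApoE-/- mice on a C57BL/6 background, a model in which loss of apolipoprotein E raises blood cholesterol. From 6 weeks of age, mice were fed a chow diet (labelled normal diet, 3 libraries) or a high-fat diet (HFD, 3 libraries) for 12 weeks. Both groups thus carried the Apoe deletion and differed by design in the diet. The HFD libraries were also shallower, as given below. The labels give the strain but not the Apoe genotype, which comes from the methods of the study, and the deletion was not checked here. Whether a library held the aorta of 1 mouse or of several is not given in the sources used here.

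When the spliceosome removes an intron, the donor (5′) end of the intron is joined to an adenosine near the acceptor (3′) end, the branch point, and the product is a lariat. Most lariats are opened by the debranching enzyme Dbr1 and degraded. Some escape, lose the tail between branch point and acceptor, and persist as a ciRNA that begins at the donor and ends at the branch point. Such circles are known to stay mostly in the nucleus, and a GU-rich stretch behind the donor and a C-rich stretch before the branch point have been tied to their escape. An intron that keeps its tail and is closed end to end is a different product, which starts at the donor and ends at the acceptor.

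The ciRNA entries came in 2 forms that differed in almost every measure, and they are described separately throughout. In 804 entries the table names the host by gene symbol and gives the number of an intron, and these are called intron-numbered. In the other 128 it names the host by an Ensembl identifier and repeats the coordinates of the entry itself in place of an intron number, and these are called coordinate-listed. All 804 intron-numbered entries began at an annotated donor site, and 802 of them lay within the numbered intron of the isoform the table names. Of the coordinate-listed entries, 1 of 128 began at a donor. At least 1 end of 85 of the 128 (66.4%) fell on the edge of an annotated exon, the 5′ end alone in 30, the 3′ end alone in 49 and both ends in 6. At least 1 whole exon lay inside 91 of the 128 (71.1%), against 60 of the 804 intron-numbered entries (7.46%). An end within 1 base of that of an exonic circRNA entry was found for 44 coordinate-listed entries and for 0 intron-numbered ones. The remaining 37 coordinate-listed entries had neither an end at an exon edge nor a whole exon inside.

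The sequences at the ends show these forms. They were read from GENCODE vM21 transcripts on GRCm38 that hold the intron, or the end of it, as part of an exon, so they could be read only where such a transcript exists. The first 20 and last 30 bases were both known for 186 of the 804 intron-numbered entries (23.1%). Among the 8 ciRNAs with the most reads and the called ones with reads in at least 3 aortas, both ends were known for 1, ciRNA72 of Rpl9 at chr5:65389611-65390387 on the reverse strand. The others below were added, after it was seen which sequences were known, to show 1 or more entries of each kind of 3′ end. They are ciRNA75 of Zfp68 (chr5:138616566-138617054, reverse), ciRNA215 of Pex6 (chr17:46723736-46723899, forward), ciRNA447 of Gtf3c1 (chr7:125669439-125669582, reverse), ciRNA557 of Polr2e (chr10:80036621-80036763, reverse) and ciRNA239 of Malat1 (chr19:5796210-5796388, reverse). The start of ciRNA128 of Tpm1 (chr9:67032027-67032793, reverse) is shown as well, since it was the called ciRNA that is intron-numbered. In the starts, written 5′ to 3′, capitals mark the first 6 bases of the intron, where the U1 snRNA pairs with the donor site.
ciRNA72 (Rpl9) start: GTAAGTcagccctccactct
ciRNA75 (Zfp68) start: GTAAGTgcacataccaaaaa
ciRNA215 (Pex6) start: GTGAGTgagtgagcggggag
ciRNA447 (Gtf3c1) start: GTAAGGagcagcttccgtca
ciRNA557 (Polr2e) start: GTGAGAagccacagtggttg
ciRNA239 (Malat1) start: GTAACCatggtgccaaggtc
ciRNA128 (Tpm1) start: GTAAGCgggcccattgctac

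In the 3′ ends, the last 30 bases of the circle are in lower case, and capitals mark the intron bases that follow and that the circle lacks. Where the circle reaches the acceptor and lacks nothing, capitals mark its own last 2 bases, the AG of the acceptor.
ciRNA72 (Rpl9) end, nothing left out: ggatggctcacagttgcttgtttgatgcAG
ciRNA75 (Zfp68) end, nothing left out: tccctaggctcagtctcctctactctggAG
ciRNA215 (Pex6) end, 19 bases left out: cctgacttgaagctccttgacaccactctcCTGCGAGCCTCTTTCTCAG
ciRNA447 (Gtf3c1) end, 20 bases left out: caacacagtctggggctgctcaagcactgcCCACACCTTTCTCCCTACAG
ciRNA557 (Polr2e) end, the first 20 of 22 bases left out: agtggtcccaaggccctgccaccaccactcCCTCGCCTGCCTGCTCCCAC
ciRNA239 (Malat1) end, 424 bases before the acceptor: gataccagtgctgggtgggaatgtaggaag

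Of the abundant coordinate-listed ciRNAs, the side that lies at an exon edge could be read. For 4 of them the last 30 bases are given in lower case throughout, the last base being the last base of an annotated exon. They are mmu_circ_0001528 of Etv6 (chr6:134062064-134066465, forward), mmu_circ_0001636 of Zranb1 (chr7:132948044-132950435, forward), ciRNA172 of Vwc2 (chr11:11149194-11154292, forward) and ciRNA140 of Erbin (chr13:103884143-103897928, reverse).
mmu_circ_0001528 (Etv6) end: caggaaagagtatatgcagaattaacacag
mmu_circ_0001636 (Zranb1) end: ctgattggctattcctcaatgcctgtgtgg
ciRNA172 (Vwc2) end: ctgatcagtgctgcccgatctgcaaaaacg
ciRNA140 (Erbin) end: atctcagggaactggatgtcagcaaaaatg

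In all 11 coordinate-listed entries for which the bases behind the 3′ end were known, the next 2 bases were GT, those of a donor. In all 7 for which the bases before the 5′ end were known, the 2 bases before it were AG, those of an acceptor. Both sides were known in 4.

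The intron-numbered ciRNAs were short. Their genomic span had a median of 658 bases (quartiles 306 and 1204), against 4721 bases for coordinate-listed ciRNAs and 9128 for exonic circRNAs. A span over 10 kb was found in 19 of the 804 intron-numbered entries (2.36%), in 50 of the 128 coordinate-listed entries (39.1%) and in 47.7% of the exonic ones. A span says how far apart the ends lie in the genome and not how long the circle is, since introns inside it may have been removed. Among ciRNAs with reads in at least 2 aortas, the shortest included ciRNA557 of Polr2e, a subunit shared by the RNA polymerases, at 143 bases, and ciRNA215 of the peroxisomal ATPase Pex6, at 164 bases. The longest were ciRNA330 of Lipo3, a lipase gene, at 164667 bases, ciRNA149 of the sodium-calcium exchanger Slc8a1 at 36906 bases and ciRNA141 of the acyltransferase Mboat2 at 27916 bases. ciRNA330 began and ended at exon edges with 34 whole exons between, and it lies in a cluster of related lipase genes, where reads can be hard to assign to 1 copy.

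**Figure D1:**
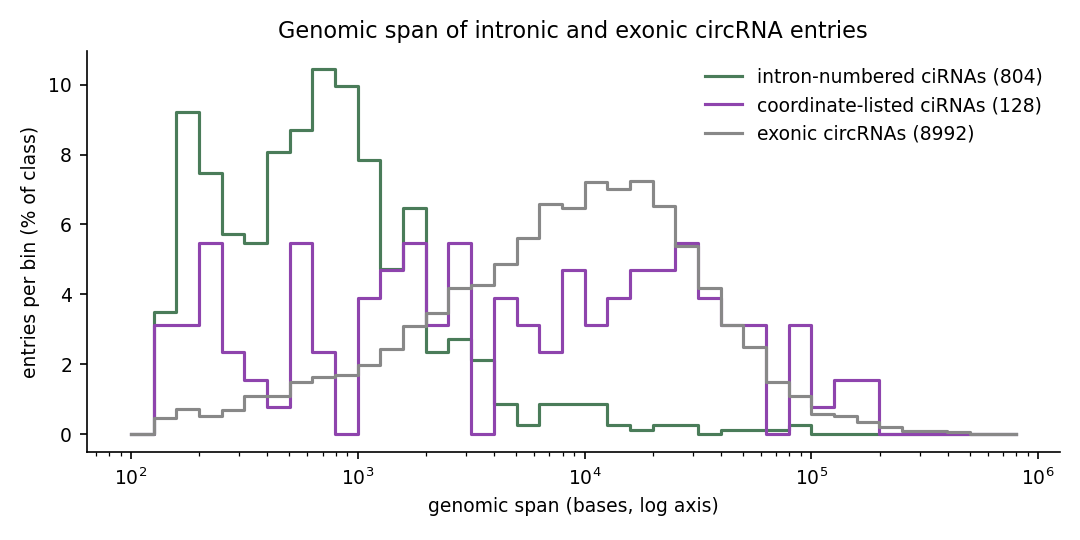
Genomic span of the 804 intron-numbered ciRNAs, the 128 coordinate-listed ciRNAs and the 8992 exonic circRNAs, as the percent of each class in bins of equal width on a log axis in bases. Intron-numbered entries lie mostly under 2 kb with a median of 658 bases, and coordinate-listed entries spread over the whole range with a median of 4721 bases.

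The 3′ ends of the intron-numbered ciRNAs fell into groups. The distance was counted from the end of the circle to the nearest annotated acceptor downstream among all introns that begin at the same donor. The end lay exactly at the acceptor in 182 of the 804 (22.6%), 1 to 9 bases before it in 131 (16.3%), 10 to 60 bases before it in 243 (30.2%) and more than 60 bases before it in 246 (30.6%), and 2 ends lay past it. Within the third group, where branch points are known to lie, the ends piled up between 20 and 34 bases from the acceptor. There were 59 entries at 20 to 24 bases, 44 at 25 to 29 and 35 at 30 to 34, against 23 at 10 to 14 and 23 at 15 to 19. The limits of 10 and 60 bases were set after the distances were seen.

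The groups were not alike on both strands. Ends at the acceptor made up 145 of 445 entries on the forward strand (32.6%) and 37 of 359 on the reverse strand (10.3%), and the group at 10 to 60 bases made up 25.4% and 36.2%. The part of the circle calling in this split was not tested. Ends more than 60 bases from an acceptor had a median distance of 1029 bases, and in 41.9% of these entries at least 50% of the span was annotated as exon in some transcript of the same strand. In the other groups with more than 2 entries this share was from 15.2% to 18.1%.

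**Figure D2:**
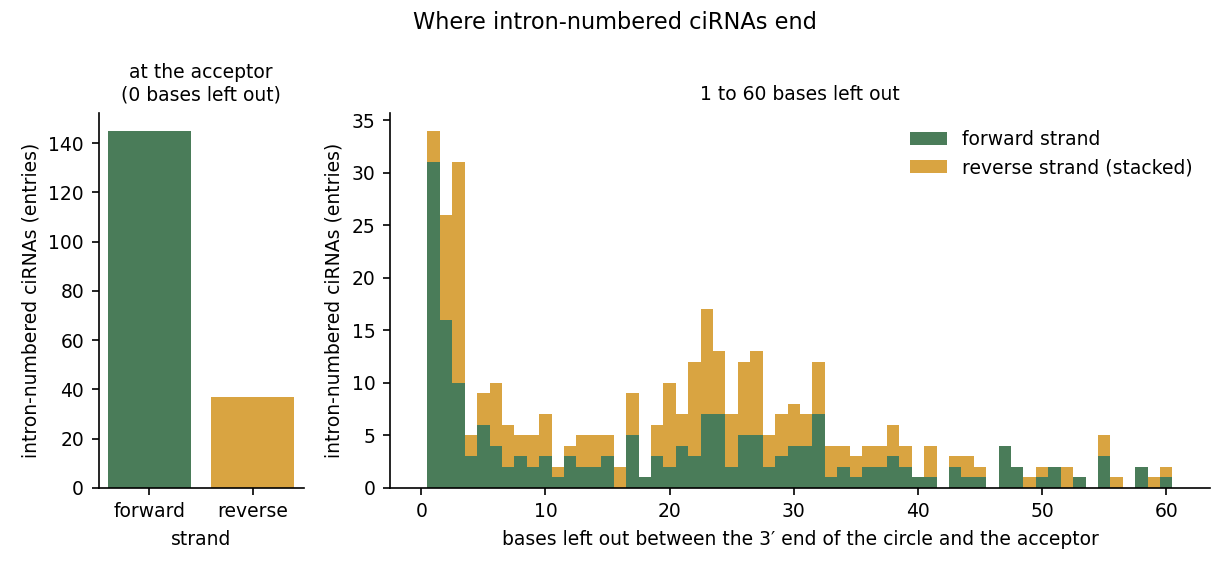
Number of intron-numbered ciRNAs by the number of intron bases left out between the 3′ end of the circle and the nearest acceptor of the same donor, for ends at the acceptor (left, one bar a strand) and for 1 to 60 bases (right, strands stacked); 246 entries with more than 60 bases and 2 past the acceptor are not drawn. The left bars stand at 145 and 37, and the right panel has its broad rise between 20 and 34 bases.

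The bases at the ends followed these groups where they could be read, which was for a minority that overlaps annotated exons and need not stand for the rest. The first 2 bases were GT in 223 of 247 entries (90.3%), GC in 12 and AT in 7. The last base was G in 39 of 40 circles that ended at the acceptor. It was C in 22 of 47 and A in 7 of 47 circles that ended 10 to 60 bases before it, and A in 10 of 22 that ended 1 to 9 bases before it. In a lariat the branch point adenosine is the last base, and a reverse transcriptase that crosses the branch often misreads it or skips it. Introns wholly readable (156 circles) had a median GC content of 44.7%.

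The elements tied to ciRNA escape were no more frequent in these circles than in all introns of the same isoforms, those that held circles included. The 5-base motif GTGTG, searched on the sense strand of the first 50 bases, was in 18 of 243 circles (7.41%) and in 153 of 1569 introns of the same isoforms whose start could be read (9.75%). The motif CCCCC, searched on the sense strand of the last 100 bases, was in 13 of 197 circles (6.6%) and in 109 of 1159 introns (9.40%). These letters are a narrow reading of both elements, and no match says only that they are not in this window.

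First introns were more common among the introns that held a ciRNA (73 of 735, 9.93%) than among all introns of the named isoforms (696 of 12432, 5.60%), while the median length was alike at 1086 and 1162 bases. These shares are descriptions, since introns of 1 gene share its expression. Host genes were protein-coding for 883 of the 932 entries and long intergenic non-coding for 30. An exonic circRNA was also listed for 346 of the 679 intron-numbered hosts (51.0%) and for 70 of the 105 coordinate-listed hosts (66.7%), and 7 genes hosted both forms.

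Most hosts gave 1 entry (667 of 777). Of the 110 hosts with 2 or more entries, 34 gave all of them from 1 donor-side end and 76 from several. Malat1, a nuclear long non-coding RNA retained in speckles, led with 22 intron-numbered entries from 2 donors. They held 5, 5 and 7 reads in chow diet aortas 1, 2 and 3 and 5, 4 and 4 in HFD aortas 1, 2 and 3, a range of 4 to 7 reads over the 6 aortas. No Malat1 circle ended within 60 bases of an annotated acceptor; ciRNA239, printed above, is an example. Agfg1, an Arf GTPase-activating protein with nucleoporin repeats, gave 6 entries from 1 donor in intron 11 whose ends lay between 47 and 58 bases from the acceptor, at 6 positions. They held 4, 1 and 5 reads on chow diet and 0, 0 and 3 on HFD, and the diets overlapped. Bgn, which encodes the matrix proteoglycan biglycan, gave 6 entries from 1 donor, with 1, 1 and 1 reads on chow diet and 2, 3 and 0 on HFD. Etv6, an ETS family repressor, and Zranb1, a deubiquitinase, gave 4 coordinate-listed entries each. Tpm1, which encodes the thin filament protein tropomyosin 1, also gave 4. Over all intron-numbered entries, 737 donors were used, and 37 of them carried 2 or more entries (104 entries in all).

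Each aorta yielded few ciRNA reads. The libraries held 7585, 7142 and 7476 back-spliced reads on chow diet and 4694, 5621 and 4875 on HFD, and the depth behind the normalized signal of the authors (the ratio of count to signal, in M for mega) was 69.8 to 73.7 M on chow diet and 57.7 to 60.3 M on HFD. Every HFD library was the shallower, so depth and diet cannot be told apart. ciRNAs accounted for 1744 reads over the 6 aortas, 1149 of them intron-numbered and 595 coordinate-listed. A count of 0 in 1 aorta allows, for an intron-numbered ciRNA, a share of up to 0.0396% to 0.0639% of its back-spliced reads. This limit and the intervals given below cover counting error only.

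A single read supported 587 of the 804 intron-numbered ciRNAs (73.0%), against 45.5% of exonic circRNAs. Reads in at least 2 aortas were found for 41 intron-numbered entries (5.10%), 30 coordinate-listed entries (23.4%) and 27.4% of the exonic ones. Among entries with 4 or more reads, 4 of 21 intron-numbered (19%), 18 of 48 coordinate-listed (37.5%) and 16.5% of exonic ones were confined to 1 aorta. No coordinate-listed entry had a count of 1 in any aorta, the smallest being 2, whereas 74.5% of the non-zero counts of intron-numbered entries were 1. Catalogue names of the mmu_circ form were given to 0 intron-numbered, 23 coordinate-listed (18%) and 29.8% of exonic entries.

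Within each aorta, the reads per detected entry were fewer for ciRNAs than for exonic circRNAs. The mean was 1.66 ± 0.123 reads for ciRNAs and 2.47 ± 0.191 for exonic circRNAs (SD, n = 6 aortas), lower in 6 of 6 aortas, with a mean log2 ratio of -0.57 (two-sided exact sign-flip permutation test, p = 0.0312, the smallest that 6 pairs allow). Intron-numbered ciRNAs had 1.33 ± 0.0475 reads per entry and were lower in 6 of 6 aortas (log2 ratio -0.89, exact permutation p = 0.0312). Coordinate-listed ciRNAs had 3.29 ± 0.372 reads per entry, none of them with a count of 1, and were higher than all exonic circRNAs in 6 of 6 aortas (log2 ratio 0.41, exact permutation p = 0.0312). With counts of 1 left out of the exonic circRNAs as well, a comparison added after seeing the data, the exonic mean was 3.97 ± 0.211, and coordinate-listed ciRNAs were lower in 6 of 6 aortas (log2 ratio -0.28, exact permutation p = 0.0312), so their direction depended on the counts of 1.

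The share of back-spliced reads that fell on ciRNAs was similar on both diets. It was 4.09% (Wilson 95% interval 3.66 to 4.56), 4.94% (4.46 to 5.47) and 4.72% (4.26 to 5.23) in chow diet aortas 1, 2 and 3. It was 4.50% (3.94 to 5.13), 4.77% (4.24 to 5.36) and 5.11% (4.52 to 5.76) in HFD aortas 1, 2 and 3. The groups overlapped, with means of 4.58 ± 0.444% on chow diet and 4.79 ± 0.307% on HFD (SD, n = 3 each, two-sided exact permutation test, p = 0.6, adjusted p = 0.686 over 8 comparisons). No p under 0.1 is possible with 3 aortas against 3. Expressed per M of the authors' depth, the ciRNA reads were 4.71 ± 0.445 on chow diet and 4.13 ± 0.418 on HFD, so the direction turned with the denominator.

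The forms moved in opposite directions under this sum. Intron-numbered ciRNAs took 2.44%, 3.05% and 2.97% of the back-spliced reads on chow diet and 3.35%, 3.49% and 3.51% on HFD. All HFD aortas lay above all chow diet aortas, with means of 2.82 ± 0.333% and 3.45 ± 0.0887% (exact permutation test, p = 0.1, the smallest possible, adjusted p = 0.267). Coordinate-listed ciRNAs took 1.65%, 1.89% and 1.75% on chow diet and 1.15%, 1.28% and 1.6% on HFD. Here all HFD aortas lay below, with means of 1.76 ± 0.121% and 1.34 ± 0.232% (exact permutation test, p = 0.1, adjusted p = 0.267).

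The intron-numbered difference depended on what the reads were set against. Per M of the authors' depth, intron-numbered reads were 2.90 ± 0.347 on chow diet and 2.97 ± 0.266 on HFD and overlapped (exact permutation p = 0.8), and over entries with reads in at least 2 aortas their share differed by 0.0437 percentage points (p = 0.9, exact permutation test). Coordinate-listed reads per M were 1.81 ± 0.099 and 1.16 ± 0.207 and did not overlap, and over entries with reads in at least 2 aortas their share differed by -0.273 points (p = 0.1, exact permutation test). Since these entries need 2 reads in an aorta to appear, the expected share in entries left with at least 2 reads at the smallest library total of 4694 was computed for every aorta. It was 1.48%, 1.65% and 1.52% on chow diet and 1.15%, 1.20% and 1.58% on HFD, so that the diets overlapped (two-sided exact permutation, p = 0.3). For intron-numbered entries it was 0.761% to 1.06% on chow diet and 1.35% to 1.45% on HFD, without overlap.

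**Figure D3:**
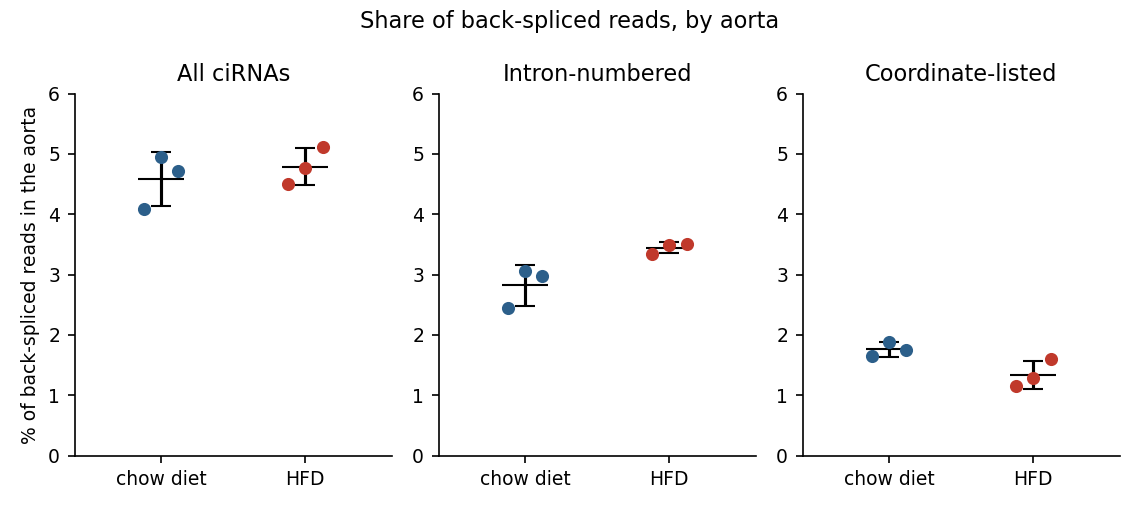
Percent of the back-spliced reads of each aorta that fell on all ciRNAs, on intron-numbered ciRNAs and on coordinate-listed ciRNAs; each point is 1 aorta, and the bars give the mean and SD of 3 aortas for each diet. The diets overlap for all ciRNAs, and do not overlap for either form, intron-numbered lying higher and coordinate-listed lower on HFD.

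Fewer ciRNAs were detected in every HFD aorta than in every chow diet aorta, but not once the totals of back-spliced reads were matched. There were 172, 205 and 198 per chow diet aorta and 137, 168 and 163 per HFD aorta, with means of 191.7 ± 17.4 and 156 ± 16.6 (exact permutation test, p = 0.1, adjusted p = 0.267). At the smallest library total, the expected numbers were 143.5 ± 15.6 on chow diet and 148.6 ± 11.1 on HFD and overlapped (exact permutation test, p = 0.6). The forms moved oppositely here too, and neither overlapped. Intron-numbered entries were expected at 107.9 ± 11.4 on chow diet and 126.4 ± 4.56 on HFD, and coordinate-listed entries at 35.6 ± 4.19 and 22.2 ± 6.61 (exact permutation test, p = 0.1 each). The coordinate-listed and the pooled numbers keep coordinate-listed entries left with 1 read, which an aorta of that total would not list. With at least 2 reads required, the coordinate-listed shares given above overlapped between the diets. The diets overlapped in where the intron-numbered circles ended. Ends at the acceptor held 26.9 ± 2.71% of the intron-numbered reads on chow diet and 25.8 ± 1.94% on HFD, and ends 10 to 60 bases before it held 29.8 ± 2.40% and 28.3 ± 4.23% (exact permutation tests, p = 0.7 and 0.6). Ends more than 60 bases away held 25.9 ± 0.675% and 30.1 ± 3.28% (p = 0.2, exact permutation test).

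The ciRNA with the most reads was mmu_circ_0001636 of Zranb1, with 9, 5 and 0 reads on chow diet and 2, 7 and 4 on HFD. The diets overlapped, and its absence from chow diet aorta 3 was as marked as any difference between the diets. ciRNA148 of Pde5a, the cGMP phosphodiesterase of smooth muscle, lay within an intron away from any exon edge (chr3:122791214-122792219) and had 10, 0 and 7 against 0, 2 and 4 reads. ciRNA172 of Vwc2, a secreted BMP antagonist, had 7, 0 and 7 against 4, 0 and 3 reads. Aortas of the same diet therefore differed from 0 to several reads for the most abundant ciRNAs as well.

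mmu_circ_0001528 of Etv6 was the one ciRNA with reads in all 6 aortas, with 3, 3 and 4 reads on chow diet and 4, 5 and 3 on HFD. It joins an intronic 5′ end to the 3′ end of an exon, and 2 further entries ended at the same base from starts close by. After normalization it had 2.99 ± 0.419 reads on chow diet and 4.45 ± 0.742 on HFD without overlap, a log2 fold change of 0.56 with a standard error of 1.04 (edgeR, adjusted p = 0.951).

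Among the intron-numbered ciRNAs, ciRNA72 of Rpl9, a protein of the large ribosomal subunit, had the most reads. It had 4, 3 and 5 reads on chow diet and 2, 1 and 0 on HFD, and all HFD aortas lay below all chow diet aortas. The log2 fold change of -1.58 had a standard error of 1.33 (edgeR, adjusted p = 0.759), and this difference did not pass the test. It was -2.47 without HFD aorta 1 and -1.0 without HFD aorta 3. ciRNA75 of the zinc finger gene Zfp68 had 2, 4 and 2 against 4, 0 and 0 reads. Like ciRNA72 it ran from a donor to an acceptor, but not over the whole of the numbered intron. That intron has 1708 bases for ciRNA72 and 4889 for ciRNA75, against spans of 777 and 489 bases. In both circles 100% of the span was annotated as exon in some transcript of the same strand. ciRNA17 of Itgb4, the integrin subunit of hemidesmosomes, was seen in 5 aortas, with 1, 0 and 2 against 2, 1 and 1 reads, and it too ended at the acceptor. In all, 25 ciRNAs had reads in at least 3 aortas, 11 of them intron-numbered, and 5 had reads in 5 or 6.

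The other ciRNAs described here among the 15 with the most reads were coordinate-listed. ciRNA650 of Setbp1, which binds the oncoprotein SET, had 14 reads in HFD aorta 1 and none elsewhere. ciRNA361 of Asb3, a substrate adaptor of ubiquitin ligases, had 0, 5 and 3 reads on chow diet and 4, 0 and 0 on HFD. ciRNA341, a second circle of Etv6 further downstream, had 0, 5 and 3 against 0, 3 and 0 reads. ciRNA143 of the potassium channel Kcnt2 had 4, 0 and 4 against 0, 0 and 2 reads. mmu_circ_0015035 of Efnb2, the arterial ephrin-B2, had 4, 0 and 3 against 0, 0 and 2. The diets overlapped in each.

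**Figure D4:**
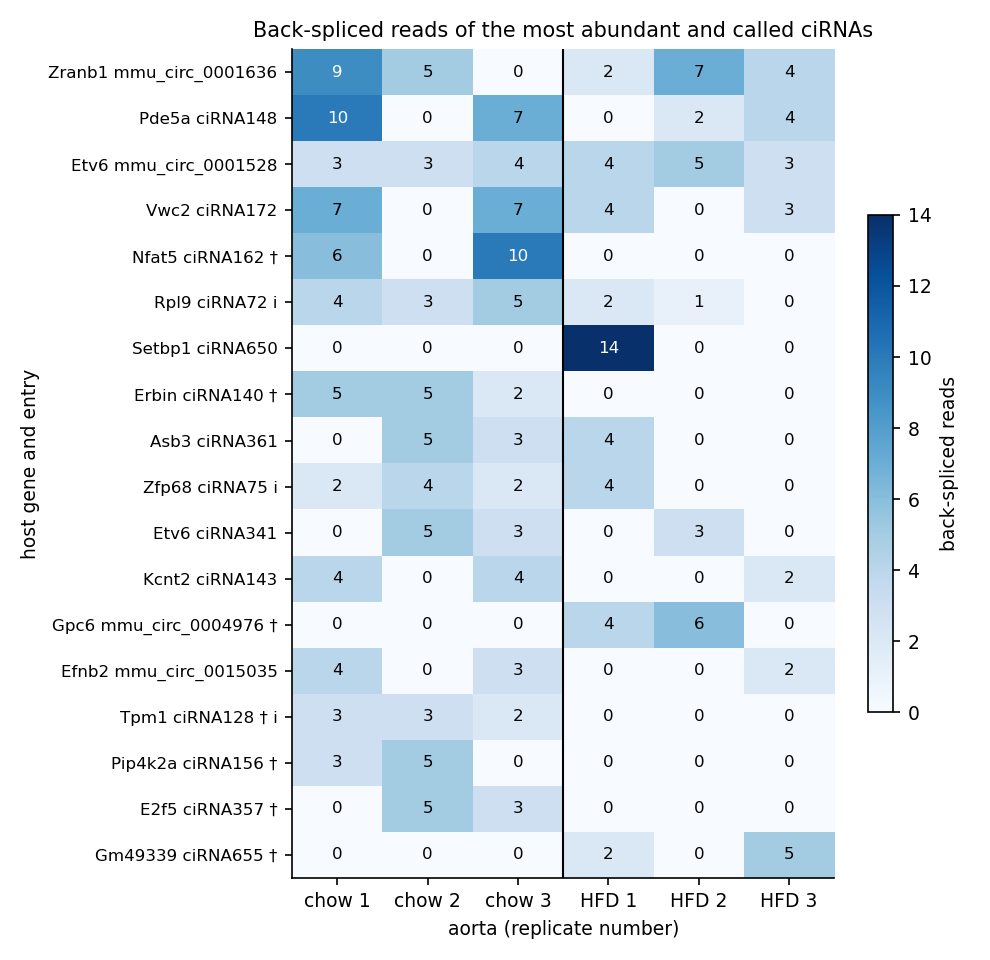
Back-spliced reads of 14 of the 15 ciRNAs with the most reads and of the called ciRNAs (†) in each of the 6 aortas, chow diet left and HFD right, with the number of reads printed in each cell; i marks intron-numbered entries. Most cells hold 0 to 7 reads, and Etv6 mmu_circ_0001528 is the only line without a 0.

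Single ciRNAs were compared between the diets in 1 edgeR quasi-likelihood fit of every circRNA detected in at least 2 aortas. A call required an unadjusted p under 0.05 together with a log2 fold change beyond 1 in either direction. Of the 932 ciRNAs, 71 had reads in at least 2 aortas and were tested. Of these, 7 were called (9.86%), 2 higher and 5 lower on HFD, where 4.06% of all 2564 circRNAs tested were called, 1.29% higher and 2.77% lower. Of the 7, 6 were among the 30 coordinate-listed ciRNAs tested (20%) and 1 was among the 41 intron-numbered ones (2.44%). Coordinate-listed entries hold no count of 1, so these shares are not set side by side at like counts. Among entries with at least 10 reads, 4 of 14 ciRNAs and 49 of 608 circRNAs were called. No ciRNA had a Benjamini-Hochberg adjusted p under 0.05 in edgeR, the smallest being 0.577, and 7 had an unadjusted p under 0.05. DESeq2 gave 1 at an unadjusted p under 0.05 and 0 after adjustment. The diets did not overlap in normalized reads for 6 of the 71 (8.45%), against a background of 6.67%. By form these were 4 of the 41 intron-numbered (9.76%) and 2 of the 30 coordinate-listed ciRNAs (6.67%). One of them, ciRNA557 of Polr2e, had no reads on chow diet and 2, 1 and 1 on HFD and was not called (edgeR, adjusted p = 0.577). The median log2 fold change was -0.20 for the tested ciRNAs and -0.18 for all circRNAs tested. By form it was 0.26 for intron-numbered and -0.58 for coordinate-listed ciRNAs. These medians are descriptions of the entries that passed the filter.

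The unadjusted edgeR p of the calls lay between 0.00376 for ciRNA162 and 0.0476 for ciRNA357. Every called ciRNA had reads on 1 diet only. All 7 therefore passed the filter through the diet on which they had reads, which fixed their direction, and no fold is given. In the coordinate-listed ones a 0 can also stand for a single read, since no count of 1 is listed. ciRNA162 of Nfat5, the transcription factor of the osmotic stress response, had 6, 0 and 10 reads on chow diet and none on HFD, with an adjusted p of 0.577 in edgeR. This circle lay within an intron of Nfat5 (chr8:107334912-107335484) with neither end at an exon edge. Chow diet aorta 2 had no reads either, so the diets overlapped.

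ciRNA140 of Erbin, a scaffold protein that binds the receptor ERBB2, had 5, 5 and 2 reads on chow diet and 0 in every HFD aorta, and the diets did not overlap (edgeR, adjusted p = 0.577). Its 3′ end, printed above, is an exon edge that it shares within 1 base with an exonic circRNA entry. ciRNA128 of Tpm1 was the intron-numbered call. It had 3, 3 and 2 reads on chow diet and 0 in every HFD aorta without overlap (edgeR, adjusted p = 0.577). None of these counts was above 3 reads, the expected count that a 0 still allows. It covers the whole of intron 5 of the named isoform, in which 74.8% of the bases are annotated as exon in other transcripts. A further Tpm1 circle 1 base shorter, ciRNA127, had 1, 0 and 1 reads on chow diet and none on HFD. ciRNA156 of Pip4k2a, a phosphoinositide kinase, had 3, 5 and 0 against no reads, and ciRNA357 of the cell cycle transcription factor E2f5 had 0, 5 and 3 against no reads. In both, 1 chow diet aorta was at the level of the HFD aortas.

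Both calls in the other direction were coordinate-listed. mmu_circ_0004976 of the cell surface proteoglycan glypican 6 (Gpc6) had no reads on chow diet and 4, 6 and 0 on HFD (edgeR, adjusted p = 0.577). Its 5′ end (chr14:117186662-117203449, forward) is shared within 1 base with an exonic circRNA entry. ciRNA655 of the predicted gene Gm49339 had no reads on chow diet and 2, 0 and 5 on HFD (edgeR, adjusted p = 0.577). Both of its ends were exon edges with 33 whole annotated exons in a span of 10052 bases. With each aorta left out in turn, from 2 to 5 of 52 to 59 tested ciRNAs were called, the most without chow diet aorta 2 (5 of 52, against 117 of 2076 circRNAs) and the fewest without chow diet aorta 1 (2 of 57, against 57 of 2026) and without HFD aorta 1 (2 of 56, against 73 of 2215). Only 1 of the 5 called without chow diet aorta 2 was among the 7 calls above, and 2 of the 4 called without chow diet aorta 3. All ciRNAs called with any other aorta left out were among the 7. ciRNA140 was called without chow diet aorta 1, without chow diet aorta 3 and without any one of the HFD aortas, but not without chow diet aorta 2.

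Host genes were also described by lists for the cells of the aortic wall, of plaque and of the surrounding fat and muscle. Whole aorta was sequenced, and fewer cells of a type and less RNA per cell cannot be told apart. Of 25 contractile genes, 16 hosted a circRNA of some kind, against 4 of 14 endothelial genes, 10 of 19 adipocyte genes and 5 of 22 skeletal muscle genes. The extracellular matrix (27 of 41), splicing and RNA-binding (25 of 42) and foam cell (13 of 22) lists lay near the contractile one. Leukocyte (8 of 28) and fibroblast (4 of 11) genes lay lower, and these counts do not check the tissue label. The contractile list had 9 ciRNA hosts and 16 entries, all intron-numbered, with 8, 5 and 7 reads on chow diet and 2, 2 and 3 on HFD. All HFD aortas lay below all chow diet aortas. These reads were 1.97% of all ciRNA reads on chow diet and 0.962% on HFD. Tpm1 gave 12 of the 27 reads, with 5, 3 and 3 on chow diet and 1, 0 and 0 on HFD. Without Tpm1, a choice made after seeing the data, the other 8 hosts had 3, 2 and 4 against 1, 2 and 3 reads and the diets overlapped. Acta2, the smooth muscle actin, had 1, 1 and 1 against 0, 1 and 0. Of the list, 3 ciRNAs were tested and 1 (ciRNA128) was called, where 4.06% of all circRNAs tested were called. Each of the 3 had reads in chow diet aortas alone and passed the filter through them, so their direction was fixed by the filter.

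The leukocyte list had 3 ciRNA hosts of 28 genes, with 1, 0 and 0 reads on chow diet and 3, 3 and 2 on HFD, and all HFD aortas lay above. Adgre1, which encodes the macrophage marker F4/80, had 0 reads in all chow diet aortas and 2, 2 and 0 on HFD, in the coordinate-listed ciRNA652 (edgeR, adjusted p = 0.577). Gpnmb, a glycoprotein of lipid-laden macrophages, had 1, 0 and 0 against 0, 1 and 2 reads. Of this list 2 were tested and 0 called in edgeR, and the counts of every aorta were at or under 3 reads, so no direction can be given.

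Extracellular matrix genes had 12 ciRNA hosts of 41 genes, with 3, 4 and 3 reads on chow diet and 5, 13 and 2 on HFD, and HFD aorta 2 gave most of the HFD reads. Besides Bgn, Col3a1, the fibrillar collagen of the vessel wall, had 4 reads, all in HFD aorta 2, and the elastin gene Eln also had 4 (0, 2 and 0 against 2, 0 and 0). Of this list 2 were tested and 0 called. Foam cell cholesterol genes had 6 hosts, with 0, 2 and 1 against 1, 4 and 1 reads, of which 3 were tied at 2 reads, the most in the list. They were the lipoprotein lipase gene Lpl (0, 0 and 1 against 1, 0 and 0), the lipoprotein receptor gene Lrp1 (0, 0 and 0 against 0, 2 and 0) and the cholesterol esterification gene Soat1 (0, 2 and 0 against 0, 0 and 0). Splicing and RNA-binding genes, which include the debranching enzyme Dbr1, had 12 hosts of 42, with 5, 0 and 2 against 4, 2 and 4 reads, led by Hnrnpk and Qk with 3 reads each, and 1 was tested and 0 called. Dbr1 itself hosted no ciRNA.

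The lists for cells around the wall held few reads. Adipocyte genes had 1, 2 and 0 reads on chow diet and 2, 0 and 2 on HFD from 6 hosts, among them the lipid enzymes Acsl1 with 2 reads and Acaca with 1. Skeletal muscle genes had 0, 1 and 0 against 0, 0 and 1, from Myom1 and Ttn, which encode sarcomere proteins. Fibroblast genes had 0, 0 and 2 against 1, 0 and 1 from 3 hosts, Pdgfrb with 2 reads and the proteoglycan gene Dcn and the gelsolin gene Gsn with 1 each. Endothelial genes had 0, 0 and 2 against 0, 0 and 0, all from the phosphatase gene Ptprb. No ciRNA of these lists or of the foam cell list had reads in at least 2 aortas, so none was tested. The part of cell composition in the counts of the contractile and leukocyte hosts was not tested.

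**Figure D5:**
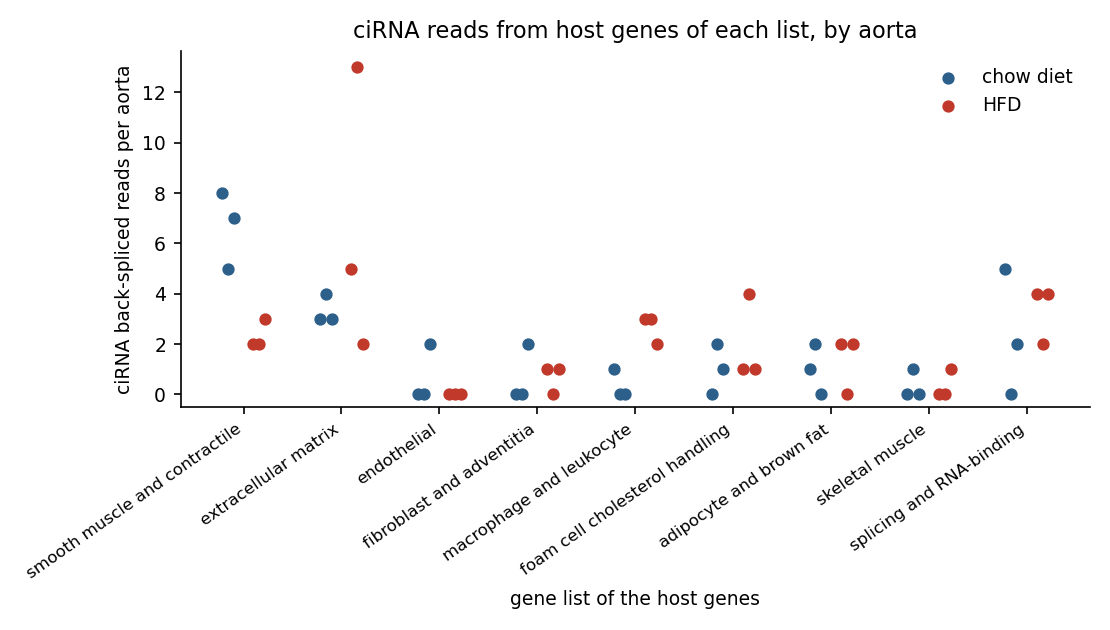
ciRNA back-spliced reads in each aorta summed over the host genes of each list, not adjusted for depth; each point is 1 aorta, chow diet left and HFD right in each column. The contractile list lies at 5 to 8 reads on chow diet and 2 to 3 on HFD, and the leukocyte list at 0 to 1 and 2 to 3.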

How the data were processed

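Back-spliced reads were counted in total RNA libraries of 3 chow diet and 3 HFD aortas. According to the methods, ribosomal RNA was depleted, reads were trimmed with Cutadapt, TopHat-Fusion searched the unmapped reads, and CIRCexplorer and CIRI assembled circRNAs. The labels also mention RNase R for isolating circRNA. Neither the genome build nor the way in which the callers were merged is given in the sources used here. Since all 804 intron-numbered entries began at a GENCODE vM21 donor, coordinates are given for GRCm38. The deposited counts are whole back-spliced reads for each entry and aorta, not normalized. A deposited signal, SRPBM, is the value for which the authors divided each count by a depth per library. The table also holds the authors' fold changes, p-values and q-values between the diets, which were not used. PCR duplicates cannot be told from independent molecules in these counts.

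The quasi-likelihood test of edgeR 4.0.16 under R 4.3.3 was run after TMM normalization over all 2564 circRNAs with reads in at least 2 of 6 aortas, without a replicate block, and p-values were adjusted over all of them. This test gives no standard error. The ones printed are the absolute log2 fold change divided by the square root of the F statistic of the test. For values per aorta, exact two-sided permutation tests were run in scipy 1.17.1. Alternatives were DESeq2 1.42.0, limma 3.58.1 on log2 SRPBM, other scalings and filters, the replicate block, summed entries of 1 donor and each aorta left out in turn. The shares of both forms, the limits of 10 and 60 bases and the share at the smallest library total were added after seeing the data. The ciRNAs and the gene lists were chosen with earlier results of these data known.

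Between libraries of 1 diet, chi-square divided by its degrees of freedom was 2.24 to 3.35, above sampling noise. Same-numbered aortas come from different mice, and their deviations from the group means did not correlate (-0.145, -0.148 and -0.0432 over 200 circRNAs), so the numbers do not pair them. The mice were allocated to the diets at random according to the methods. Whether a library held RNA of 1 mouse or of several is not given there, and p-values measure the spread between these libraries. The named ciRNAs are the 15 with the most reads, all called ones, those of the 5 hosts with the most entries, the 3 longest and 3 shortest with reads in at least 2 aortas, and the 2 leading hosts of each list. Of these, 2 are not reported here. Other ciRNAs were named after their values were seen. All 128 Ensembl identifiers matched a gene symbol.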

Additional observations from a re-analysis of the deposited data

How the results depend on the processing

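The number of called ciRNAs, 7 of 71 tested, depended on the processing. It was 1 with DESeq2, 4 with library size alone, 4 of 25 tested with reads in at least 3 aortas (86 of 1267 over all circRNAs), 4 of 14 tested with at least 10 reads (49 of 608), 4 with limma on log2 SRPBM and 0 at an adjusted p under 0.05. It was 7 with the depth of the authors' signal, 6 without a filter and 10 with entries of the same donor-side end summed, and from 2 to 5 with 1 aorta left out. With the replicate block it was 1 (ciRNA162), over all circRNAs the calls went from 104 to 30, and the samples share only a number. Over all circRNAs, DESeq2 called 23 (12 higher, 11 lower), and library size alone gave 40 higher and 43 lower in place of 33 and 71, and moved the median log2 fold change over the whole table from -0.18 to 0.04. Each of the 7 called ciRNAs had 0 reads in all aortas of a diet, so no alternative could turn its direction. Among the others named, mmu_circ_0001636 (0.16) ranged from -0.40 without chow diet replicate 3 to 1.02 with 1 aorta left out, was also negative without HFD replicate 2 (-0.29), and turned to -0.47 with entries summed. ciRNA361 (-0.61) ranged from -4.38 to 0.093, the latter without chow diet replicate 2. The difference in the ciRNA share, 0.206 percentage points higher on HFD, turned to -0.575 reads per M of the authors' depth, to -0.229 points over entries with reads in at least 2 aortas, and to -0.042 points without chow diet replicate 1, in a range up to 0.386 with 1 aorta left out. The difference in the number of ciRNAs turned from -35.7 to 5.10 at the smallest library total. Reads per ciRNA entry against exonic entries had log2 ratios from -0.58 to -0.55 with 1 aorta left out, where 5 pairs allow no p under 0.0625, and of -0.38 over entries with reads in at least 2 aortas, against -0.57. A block cannot move a difference of means in this balanced design (0.206 points for all ciRNAs), and with the replicate block the exact permutation p went from 0.1 to 0.25, the smallest it allows, for the shares of both forms and for the number of ciRNAs. The causes were not tested. Depth limits these results. For an intron-numbered ciRNA, a count of 0 in an aorta allows an expected count of up to 3 reads. A ciRNA with 3 reads or fewer in 1 aorta therefore cannot be told apart from one with 0 in another.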
